A study of Mus musculus with 3 samples.

Results

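The cells described here came from mouse tumours and held transcripts of the DNA replication programme, and they were chosen by the genes detected in each cell. That each of them was a tumour cell was not established. A cell was taken when it held at least 5000 UMIs (unique molecular identifiers, each counting 1 captured transcript), at most 15% mitochondrial UMIs, at least 1 UMI in 4 or more of the 8 genes Mcm3, Mcm5, Mcm6, Gins2, Pclaf, Rrm2, Cdc6 and Uhrf1, and UMIs in at most 1 of the 5 genes Ube2c, Ccnb1, Cenpf, Cdc20 and Tpx2. Cells with 2 or more of the immune genes C1qa, Tyrobp and Ctss, or with 2 or more of the endothelial genes Cldn5, Pecam1 and Flt1, were left out. The selection gave 469 S-gated cells among 9453 cells under the limits on depth, mitochondrial share and immune and endothelial genes, out of 28380 barcodes. They numbered 206, 84 and 179 in tumours 1, 2 and 3.

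Single-cell RNA sequencing with 10x droplet libraries had been carried out on 3 mouse rhabdoid tumours labelled R26-SHH, each from a different mouse of the genotype Rosa 26-CreERT2::Smarcb1flox/flox. In this line a tamoxifen-inducible Cre recombinase is expressed from the Rosa26 locus and is not restricted to a cell type, and the floxed gene encodes a subunit of the SWI/SNF chromatin remodelling complex. The animals had a mixed 129/SV and C57BL/6 background, their age at sampling was not given in the sources used here, and no sort was applied to the mouse cells. There was no control group, so every comparison was made between classes of cells inside the same 3 animals.

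Cells copy their genome once per division, in S phase. Origins are licensed in G1 by loading of the MCM helicase, which then unwinds DNA together with Cdc45 and the GINS complex, and E2F transcription factors, held back by the retinoblastoma proteins until cyclin D and cyclin E kinases act, raise the transcripts of the replication machinery as cells pass from G1 into S phase. Histone transcripts peak during DNA synthesis itself, and the genes of mitosis follow in G2.

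Cells under the same limits were divided by the same genes into further classes. Low cells had at most 1 of the 8 S genes and at most 1 of the 5 G2/M genes, and there were 3399, 1567 and 1108 of them. Cells with 2 or 3 of the 8 S genes and at most 1 G2/M gene were called intermediate and numbered 518, 226 and 464. G2/M-gated cells had at least 3 of the 5 G2/M genes, with any number of S genes, and numbered 535, 187 and 465. The remaining 515 cells had 2 of the G2/M genes. Counts were summed per tumour and class, levels are given as CPM (UMIs of the gene per 1000000 UMIs of the sum), and such a sum cannot tell fewer expressing cells from less RNA per cell. The cells are called S-gated by their rule and not cells in S phase, because most replication histone transcripts, which belong to DNA synthesis, were lower than in G2/M-gated cells as sequenced, although fewer were after thinning and most such transcripts lack the poly(A) tail that is captured.

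The libraries held 79529921, 40151353 and 67645602 UMIs over 12467, 9485 and 6428 barcodes. The S-gated sums held 3208910, 1298521 and 4484036 UMIs. Tumour 3 stood apart in depth, with a median of 23171 UMIs per S-gated cell against 14159.5 and 13093.5 in tumours 1 and 2. Low cells were shallower in every tumour, with medians of 9602, 8278 and 17156 UMIs, and G2/M-gated cells were deeper, with 17024, 14329 and 31324. Between 22 and 42 cell barcodes of a tumour occurred in another tumour as well, and none of them was S-gated in both tumours. Scrublet, a doublet caller whose rate was set by the number of barcodes at 9.97, 7.59 and 5.14% in tumours 1, 2 and 3, marked 11.2, 7.14 and 3.35% of the S-gated cells, against 7.97, 4.40 and 1.90% of the low cells.

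Among the cells under the limits, 4.21% were S-gated in tumour 1 (3.66 to 4.81, exact 95% binomial limits). The share was 3.93% in tumour 2 (3.15 to 4.85), and tumour 3 had 7.39% (6.38 to 8.50), with a mean of 5.18% ± 1.92 (SD, n = 3). Tumour 3 was the highest, and the other two had overlapping intervals. After every cell had been thinned to 5000 UMIs the shares were 2.84, 2.44 and 4.70%, with a mean of 3.33% ± 1.21, and the order of the tumours was kept. The G2/M-gated share was likewise highest in tumour 3, at 19.2% against 10.9 and 8.76%. These intervals cover counting error only.

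**Figure D1:**
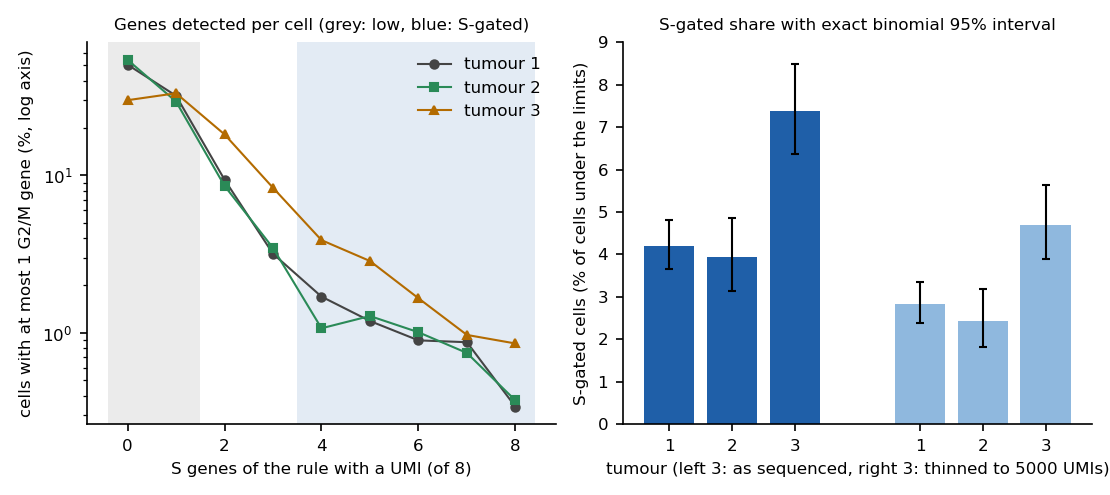
Left, percent of the cells with at most 1 G2/M gene at each number of the 8 S genes detected, one line per tumour on a log axis. Right, percent of cells under the limits that were S-gated in each tumour, as sequenced and after thinning to 5000 UMIs, with exact 95% binomial intervals. Tumour 3 lies above the other tumours in the right panel, at 7.39% as sequenced.

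The number of S genes per cell had no gap at the threshold. Of the cells with at most 1 G2/M gene, 3621 had none of the 8 genes, 2453 had 1, 866 had 2, 342 had 3, 158 had 4, 123 had 5, 85 had 6, 67 had 7 and 36 had all 8. The S-gated cells are therefore the upper end of a range, with 158 cells just inside the threshold and 342 just outside. Cells just inside, with 4 genes, had 104 ± 12.2 CPM of Hells against 45.1 ± 23.2 in cells just outside with 3 genes (SD, n = 3 tumours), and E2f1 stood at 22.6 ± 4.62 against 8.94 ± 1.23. Pcna, which was not in the rule, was at 90.5 ± 24.0 CPM just inside, 63.8 ± 12.8 just outside, 200 ± 13.9 in cells with 6 to 8 genes and 40.5 ± 4.62 in cells with none.

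**Figure D2:**
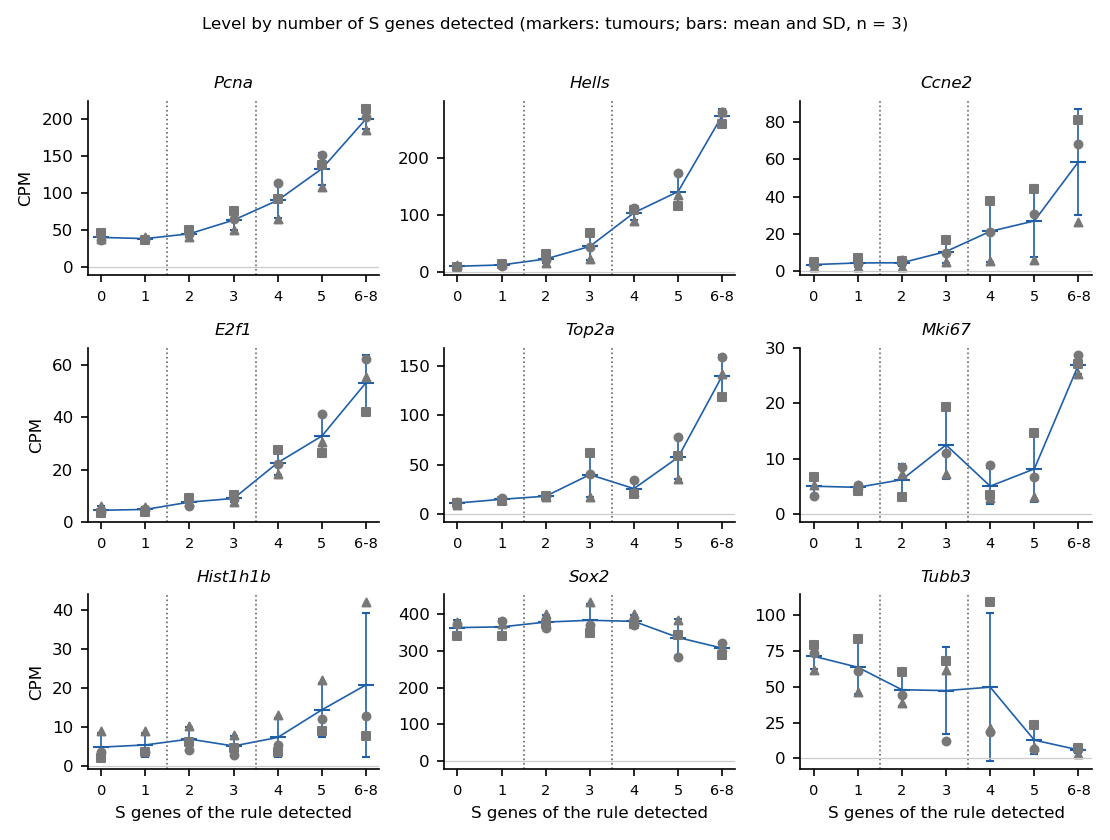
Mean CPM over the 3 tumours (error bars, SD) of genes outside the rule against the number of the 8 S genes detected in a cell. Pcna and Hells climb through the threshold of 4 genes, Mki67 stays at 26.9 CPM or below, and Tubb3 declines from 71.3 to 5.86 CPM.

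The genes of the rule are described without a test, because they chose the cells. Mcm6, a helicase subunit, was found in 94.2, 88.1 and 93.3% of S-gated cells, at 162 ± 19.7 CPM (SD, n = 3) against 12.7 ± 0.272 in low cells. Cdc6, which loads the helicase onto origins, was at 25.8 ± 8.80 against 0.468 ± 0.151 CPM and was detected in 28.2, 31.0 and 25.7% of S-gated cells. Mcm3 was at 128 ± 8.26 CPM, Mcm5 at 83.7 ± 6.05 and Gins2, a GINS subunit, at 76.0 ± 11.9. Pclaf, a partner of PCNA, was at 106 ± 44.3 CPM, Rrm2, the small subunit of ribonucleotide reductase, at 84.6 ± 38.5 and Uhrf1, which guides maintenance DNA methylation, at 109 ± 40.4. These last 3 genes spread most between tumours relative to their mean and were lowest in tumour 3. G2/M-gated cells, whose rule left the S genes free, held on average more Pclaf (365 ± 67.1 CPM) and Rrm2 (152 ± 23.8) than S-gated cells, and less Mcm3 (93.0 ± 26.5), Mcm5 (54.6 ± 13.0) and Mcm6 (105 ± 17.1).

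Free RNA in the droplets was read from mature oligodendrocytes, which do not divide. Of 65 oligodendrocyte-gated cells under the limits (at least 2 of Mog, Mag, Ermn, Opalin and Aspa), 1 reached the S gate, which is 1.54% (0.0389 to 8.28), at a median depth of 11489 UMIs, and after thinning 0 of 65 did, which allows a share of up to 4.62% by 3 counts of the total and up to 5.52% by the exact interval. At 5000 UMIs single genes of the 8 were detected in 0 to 13.0% of the 23 oligodendrocyte-gated cells of tumour 1 and in 0 to 5.00% of the 40 of tumour 2, with Mcm6 highest in tumour 1, and tumour 3 had only 2 such cells. In low cells they were detected in 0.206 to 6.50% in tumour 1 and 0.128 to 7.08% in tumour 2, and in S-gated cells, which these genes chose, in 15.5 to 62.1% and 15.5 to 64.3%. Immune-gated cells, which the rule leaves out, met the S and G2/M conditions in 3.68, 3.83 and 9.68% of 625, 575 and 155 cells in tumours 1, 2 and 3, at median depths of 10943, 8527 and 22149 UMIs, against 4.21, 3.93 and 7.39% of the cells under the limits. The immune share was the lower one in tumours 1 and 2 and the higher one in tumour 3. The difference between these populations was not tested.

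**Figure D3:**
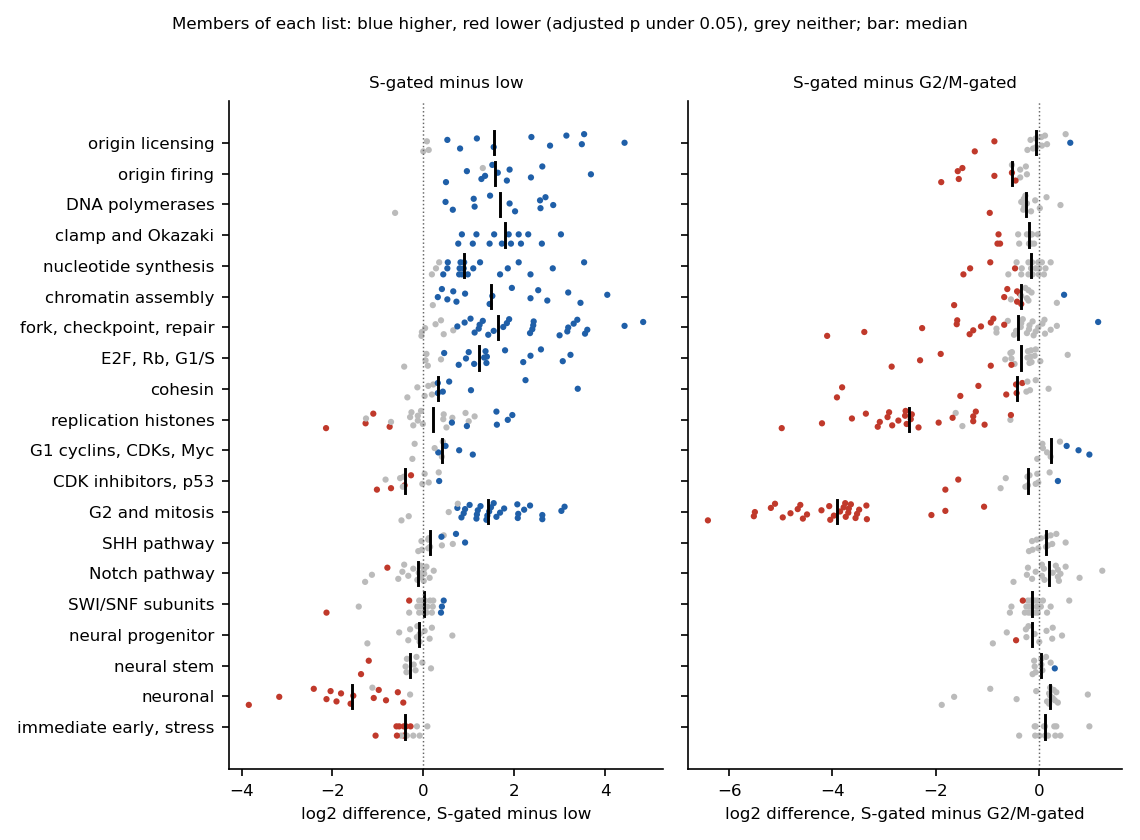
Log2 difference of each member of the gene lists between S-gated cells and low cells (left) and between S-gated and G2/M-gated cells (right). Blue points are higher and red points lower at an adjusted p under 0.05 in edgeR, grey points are neither, and bars are medians. Replication lists lie right of 0 on the left and near 0 on the right, and the G2 and mitosis list lies far left on the right, with a median of -3.91.

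Across all 14565 genes tested with edgeR's quasi-likelihood test on the summed counts, with the tumour as a block, 1055 genes (7.24%) were higher and 731 (5.02%) were lower in S-gated than in low cells at an adjusted p of 0.05, the genes of the rule left out. The median log2 difference of all genes was -0.042. The counts of list members against low cells below are to be read beside these shares. The difference is always S-gated minus the other class. The classes were formed on 8 replication genes, so a gene whose level varies with them differs between the classes by construction, and these tests describe which genes did so evenly in 3 animals. Without the tumour as a block 278 genes were higher and 8 lower. Without tumour 1, 461 were higher and 260 lower, and without tumour 2, 618 were higher and 202 lower.

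The replication machinery was higher almost throughout. Of 51 tested members of the lists for origin licensing, origin firing, DNA polymerases, and the sliding clamp with Okazaki fragment processing, 46 were higher and 0 lower than in low cells, with a median log2 difference of 1.64. Between 42 and 46 were higher when any single tumour was left out, with 1 lower without tumour 1, and 41 without the tumour as a block.

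Among the licensing factors 10 of 13 were higher. Mcm2, a helicase subunit, was at 71.4, 60.1 and 72.5 CPM in the S-gated cells of tumours 1, 2 and 3 and at 6.93, 4.76 and 11.6 in low cells, without overlap (log2 difference 3.15, SE 0.17, adjusted p 8.02e-07 in edgeR). Cdt1, the loading factor, was at 31.8, 32.3 and 25.0 against 2.17, 3.11 and 2.85 CPM (3.49, SE 0.18, adjusted p 7.1e-07 in edgeR), and its inhibitor Gmnn was also higher, by 3.54. Mcm10, which joins the helicase at firing, had the largest difference of the list at 4.43. Mcm4 (2.79) and Mcm7 (1.55) were higher as well. The members that did not pass were the origin recognition subunits Orc3, Orc4 and Orc5, at 0.00, 0.12 and 0.08, while Orc1 (2.38), Orc2 (0.81) and Orc6 (1.18), named like these after their values were seen, were higher.

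The promoters of a few of these genes are shown because E2F factors act through short sequence words close to the start site. Of the 71 named and rule genes with a window of 250 bases, 13 held such a word. Those shown are the ones among them that no GENCODE exon overlaps, so they are not typical of the named genes. Each line gives the 200 bases before the RefSeq start site of the gene on GRCm38.p6, 5′ to 3′ on the gene's strand, with capitals marking every match to the words TTTCCCGC, TTTCGCGC, TTTGCCGC and TTTGGCGC or their reverse complements, where overlapping matches run together. Mcm5 and Mcm6 are genes of the rule, Uhrf1 is as well, Pola1 encodes the catalytic subunit of the priming polymerase, E2f7 encodes a repressor of the E2F family, and Hopx is shown as a gene that was lower in S-gated cells and has a word all the same. The windows are chr8:75109309-75109508 (plus strand) for Mcm5, chr1:128359706-128359905 (minus) for Mcm6, chr17:56304113-56304312 (plus) for Uhrf1, chrX:93632156-93632355 (minus) for Pola1, chr10:110745239-110745438 (plus) for E2f7 and chr5:77115124-77115323 (minus) for Hopx, and no GENCODE exon overlaps them.
Mcm5: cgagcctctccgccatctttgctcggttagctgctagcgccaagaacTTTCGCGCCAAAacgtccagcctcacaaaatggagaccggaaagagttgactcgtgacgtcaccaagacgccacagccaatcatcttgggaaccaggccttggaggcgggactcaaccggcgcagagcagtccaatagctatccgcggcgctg
Mcm6: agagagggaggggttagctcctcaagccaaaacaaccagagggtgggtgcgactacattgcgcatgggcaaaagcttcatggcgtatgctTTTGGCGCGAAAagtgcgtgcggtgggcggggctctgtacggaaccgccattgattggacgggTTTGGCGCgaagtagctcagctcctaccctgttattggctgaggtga
Uhrf1: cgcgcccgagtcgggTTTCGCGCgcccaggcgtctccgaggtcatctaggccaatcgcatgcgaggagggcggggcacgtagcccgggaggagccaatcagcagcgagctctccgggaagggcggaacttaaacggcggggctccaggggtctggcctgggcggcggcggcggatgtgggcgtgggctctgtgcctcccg
Pola1: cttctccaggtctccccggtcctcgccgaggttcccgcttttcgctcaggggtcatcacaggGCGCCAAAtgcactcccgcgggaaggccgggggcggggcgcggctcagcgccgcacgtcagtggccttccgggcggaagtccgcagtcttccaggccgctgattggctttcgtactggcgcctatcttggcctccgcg
E2f7: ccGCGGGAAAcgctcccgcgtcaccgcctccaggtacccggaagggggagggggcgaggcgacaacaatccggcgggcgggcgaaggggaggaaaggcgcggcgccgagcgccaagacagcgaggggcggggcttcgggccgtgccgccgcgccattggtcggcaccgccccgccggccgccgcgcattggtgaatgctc
Hopx: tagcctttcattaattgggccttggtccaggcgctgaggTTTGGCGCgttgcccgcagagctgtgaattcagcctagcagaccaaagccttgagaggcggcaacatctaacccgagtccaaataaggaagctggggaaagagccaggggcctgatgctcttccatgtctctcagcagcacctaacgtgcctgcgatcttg

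In windows of 250 bases before the RefSeq start site, counted whether or not a GENCODE exon overlapped them, an E2F-type word was found in 583 of 27025 genes (2.16%) and in 408 of the 10881 tested genes with a window (3.75%). It was found in 87 of 849 genes higher in S-gated than in low cells (10.2%) and in 12 of 546 lower genes (2.20%). Against G2/M-gated cells it was found in 4 of 199 higher genes (2.01%) and in 53 of 537 lower genes (9.87%). Of the replication machinery, 9 of 41 members with a window held a word (22.0%), and of the 8 genes of the rule 4 of 7. The word TTTGAA, the core of the element that binds the complex controlling many mitotic genes, stood in 18.3% of all windows and in 12.6% of those of tested genes, in 14.5% of those of genes higher than in low cells and in 22.9% of those of genes lower than in G2/M-gated cells. A match describes the letters of the window and says nothing about binding.

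Origin firing factors were higher in 11 of 12 cases. Cdc45, which with MCM and GINS forms the active helicase, was at 18.7, 16.9 and 19 CPM against 1.21, 1.45 and 1.68 in low cells (log2 difference 3.69, SE 0.17, adjusted p 4.08e-07 in edgeR). Wdhd1, which couples helicase and polymerase, and Ticrr, which brings Cdc45 to origins, were higher by 2.62 and 2.37. The exception was Recql4 (1.31, adjusted p 0.0897 in edgeR), with 1.56, 2.31 and 1.78 CPM against 0.788, 0.483 and 0.763.

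DNA polymerase subunits were higher in 11 of 12 cases. Prim1, the primase that starts every new strand, was at 47.4, 50.8 and 32.3 CPM against 7.6, 6.77 and 6.92 (log2 difference 2.57), and Pola1 at 47.7, 47.0 and 64.0 against 17.6, 12.9 and 26.1 (1.47, adjusted p 8.36e-05 in edgeR). Pole, the catalytic subunit of the leading strand polymerase, was higher by 2.69 and Pole2 by 2.86, although Pole2 shares exonic sequence on the same strand with Gm49384 and its counts are uncertain. Pold4, a small accessory subunit of polymerase delta, was the exception, at 17.8, 16.2 and 10.9 CPM against 20.8, 21.7 and 25.1, which did not overlap (-0.62, adjusted p 0.0523 in edgeR). It was lower without tumour 1 (-0.90, adjusted p 0.0491) and with cells of other types removed (-0.75, adjusted p 0.0161).

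All 14 genes of the clamp and of Okazaki fragment processing were higher. Pcna, the sliding clamp (chr2:132249162-132253314), was at 159, 166 and 118 CPM in S-gated cells and at 38.1, 42.2 and 40.0 in low cells, without overlap (log2 difference 1.88, SE 0.11, adjusted p 1.95e-06 in edgeR). It was not off in the low cells, and at 5000 UMIs it was detected in 53.9, 57.1 and 48.0% of S-gated, 17.0, 17.5 and 18.3% of low and 0, 27.5 and 0% of oligodendrocyte-gated cells. Lig1, the ligase that seals Okazaki fragments, was at 168, 193 and 83.2 against 19.8, 20.4 and 12.7 CPM (3.03). Dna2, a nuclease of flap removal, was higher by 2.61 and the flap nuclease Fen1 by 2.10.

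Enzymes of deoxynucleotide supply were higher in 18 of 21 cases, with a median log2 difference of 0.89. Rrm1, the large subunit of ribonucleotide reductase, was at 74.8, 83.9 and 56.6 CPM against 22.0, 22.4 and 21.6 (1.69, SE 0.10, adjusted p 2.39e-06 in edgeR). Tk1, thymidine kinase, was higher by 3.54, Dut, which hydrolyses dUTP, by 2.10 and Tyms, thymidylate synthase, by 1.86. Of the purine synthesis enzymes of the list, grouped after their values were seen, Ppat was higher by 0.89, Paics by 0.82, Gart by 0.54, Impdh2 by 0.53 and Gmps by 0.44. Atic, of the same group, did not pass (0.35, adjusted p 0.0529 in edgeR). Shmt2 (0.19) and Samhd1 (0.28), which degrades deoxynucleotides, did not pass either.

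Chromatin assembly and maintenance genes were higher in 15 of 16 cases. Hells, a chromatin remodeller needed for DNA methylation (chr19:38930915-38971051), was at 196, 188 and 166 CPM against 9.43, 11.3 and 13.3 (log2 difference 4.05, SE 0.14, adjusted p 4.5e-08 in edgeR). Of the subunits of the CAF-1 histone chaperone, Chaf1a was higher by 3.46, Chaf1b by 3.19 and Rbbp4, which other chromatin complexes share and which was named after its values were seen, by 0.41. The chaperone Asf1b was higher by 2.73. Dnmt1, the maintenance methyltransferase, was higher by 1.95 and Ezh2, the methyltransferase of Polycomb complex PRC2, by 0.92. Rbbp7 did not pass (0.21).

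Replication-dependent histone transcripts were called in both directions. Of 25 tested histone genes, 5 were higher and 4 lower than in low cells, with a median log2 difference of -0.01, and without tumours 1, 2 and 3 the higher genes numbered 3, 3 and 4 and the lower ones 0, 2 and 2. Hist1h1b, a linker histone, was at 9.97, 6.93 and 25.2 CPM against 3.38, 2.62 and 8.85 in low cells, whose ranges overlap between tumours although each tumour had the higher value in its S-gated cells (1.61, adjusted p 0.00193 in edgeR), and at 169, 108 and 231 CPM in G2/M-gated cells. Hist1h3a was higher by 1.96, and Hist2h3c2 was lower, with a difference of -2.14 and under 1 CPM in every S-gated sum. Its call was lost when any single tumour was left out (adjusted p 0.124, 0.0912 and 0.263 in edgeR). Slbp, which binds the end of these transcripts and stood in the same list, was higher by 0.96 and is left out of these counts, a choice made after the values were seen. Hist1h1b and Slbp were named after their values were seen. When the rule was applied after thinning to 5000 UMIs, 11 of 23 histone genes were higher, 2 lower and the median was 1.45. The limit on G2/M genes was then applied to the thinned counts as well. Of 30 genes of G2 and mitosis, 29 were higher than in low cells after thinning, against 26 as sequenced. Whether thinning let G2 or mitotic cells into the S gate was not tested. Histone genes are near-identical copies whose counts cannot be assigned with certainty, and most of their transcripts lack the poly(A) tail that these libraries capture.

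Hist1h2ap, also named after its values were seen, differed between the animals in all classes. It was at 3.74, 4.62 and 142 CPM in S-gated cells, 4.42, 3.18 and 86.6 in low cells and 57.3, 49.1 and 1090 in G2/M-gated cells. Tumour 3 was highest in each class.

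Genes of the replication checkpoint and of repair were higher in 25 of 32 cases and lower in 0, with a median log2 difference of 1.65. Dscc1, part of an alternative clamp loader, had the largest difference of the list, at 12.8, 6.93 and 10.9 CPM against 0.563, 0.138 and 0.254 (4.84, SE 0.34, adjusted p 4.88e-06 in edgeR). Exo1, a resection nuclease, was higher by 4.43. Cohesin genes were higher in 7 of 13 cases, led by the acetyltransferase Esco2 (3.40) and by Chtf18 (2.25), of the same loader as Dscc1, and 4, 5 and 6 were higher without tumours 1, 2 and 3. The core subunits Smc1a and Smc3, taken after their values were seen, were higher by 0.57 and 0.43. The subunits Rad21 (0.19, adjusted p 0.18 in edgeR), Stag1 (0.22, 0.0981) and Stag2 (0.11, 0.45) did not pass.

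The E2F and retinoblastoma list was higher in 15 of 20 cases and lower in 0, with a median of 1.23. E2f1, an activator (chr2:154559407-154569892), was at 43.3, 34.7 and 34.1 CPM against 4.14, 3.59 and 5.80 (log2 difference 3.07, SE 0.19, adjusted p 1.98e-06 in edgeR). The repressors E2f7 and E2f8, themselves E2F targets, were higher by 2.59 and 2.36. Ccne2, a cyclin of the G1/S transition, was at 43.0, 61.6 and 12.7 CPM against 3.58, 5.87 and 2.39 (3.24, SE 0.24, adjusted p 8.35e-06 in edgeR), lowest in tumour 3 in both classes. Ccne1 was higher by 1.80. Rb1 (0.07) and Rbl2 (-0.42, adjusted p 0.0514 in edgeR) did not pass, while their relative Rbl1, named with them after the values were seen, was higher by 2.20.

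Among G1 cyclins, their kinases and Myc genes, 4 of 9 were higher. Ccnd1, cyclin D1 (chr7:144929931-144939925), was at 640, 599 and 706 CPM in S-gated cells, 280, 231 and 437 in low cells and 354, 368 and 408 in G2/M-gated cells, and the S-gated values were above all others (log2 difference from low cells 1.09, SE 0.13, adjusted p 0.000262 in edgeR). Cdk6 was higher by 0.79 and Cdk4 by 0.49. Ccnd2 was at 896, 1110 and 169 CPM against 636, 544 and 215 in low cells, lower in tumour 3 and higher in the others (0.43, adjusted p 0.166 in edgeR). Mycn differed by 0.33 (adjusted p 0.0331 in edgeR), a call that was lost when any single tumour was left out (adjusted p 0.0759, 0.0803 and 0.0801).

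Of 13 genes in the list of CDK inhibitors, p53 and its targets, 4 were lower and 1 was higher, with a median of -0.41, and 2 were lower when any single tumour was left out. Cdkn1b, which encodes p27, was at 155, 175 and 93.0 CPM against 196, 216 and 108, lower in each tumour (log2 difference -0.27, adjusted p 0.0262 in edgeR), and the call was lost without any single tumour (adjusted p 0.235, 0.164 and 0.0664 without tumours 1, 2 and 3). Cdkn1a, which encodes p21, was at 42.4, 34.7 and 6.91 against 38.0, 62.5 and 18.2 CPM (-0.51, adjusted p 0.184 in edgeR) and Cdkn1c at 132, 50.8 and 168 against 210, 115 and 348 (-0.83, adjusted p 0.103 in edgeR). Cdkn1a passed without tumour 1 (-1.08, adjusted p 0.0126 in edgeR). Cdkn1c passed without tumour 2 (-0.81, adjusted p 0.00695) and with cells of other types removed (-0.82, adjusted p 0.00161). The lowest adjusted p of the list was that of Btg2, an antiproliferative p53 target taken after its values were seen, at 696, 606 and 1270 CPM against 1070, 785 and 1550 (-0.41, adjusted p 0.00276 in edgeR, 0.0617 without tumour 1). The higher member was Trp53 itself, which encodes p53 (0.35, adjusted p 0.0312 in edgeR), a call lost without tumour 1 (0.119) or tumour 2 (0.141). Cdkn2b (-1.02) and the stress gene Gadd45a (-0.71) were lower. The call of Cdkn2b was lost without tumour 2 (adjusted p 0.241 in edgeR) or tumour 3 (0.19), and that of Gadd45a without tumour 1 (0.178) or tumour 2 (0.135).

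**Figure D4:**
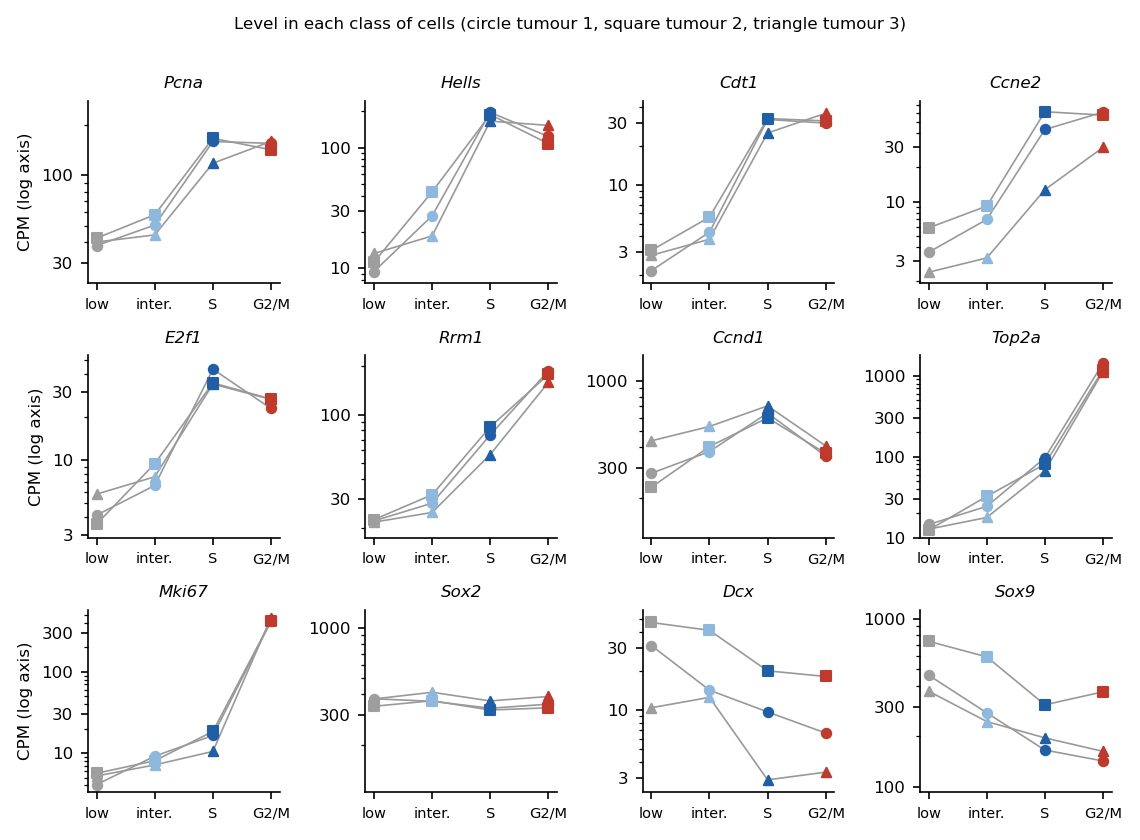
CPM of 12 genes in low, intermediate, S-gated and G2/M-gated cells of each tumour, on log axes that differ between panels, with circles, squares and triangles for tumours 1, 2 and 3. Hells rises from 9.43 to 13.3 CPM in low cells to 166 to 196 in S-gated cells, and Mki67 is at most 18.5 CPM outside the G2/M-gated cells.

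Genes of G2 and mitosis were present at a low level in S-gated cells. Of 30 list members, 26 were higher and 0 lower than in low cells, with a median log2 difference of 1.43, although the rule admitted at most 1 of 5 G2/M genes in either class. Top2a, a topoisomerase, was at 96.6, 80.9 and 66.5 CPM in S-gated cells, 14.5, 12.4 and 12.7 in low cells and 1430, 1190 and 1130 in G2/M-gated cells (2.62, SE 0.09, adjusted p 3.81e-08 against low cells and -3.97, adjusted p 2.43e-10 against G2/M-gated cells in edgeR). Mki67, the proliferation marker, was at 16.5, 18.5 and 10.5 CPM against 4.11, 5.66 and 5.24 in low cells (1.55, adjusted p 0.000669 in edgeR) and 417, 425 and 463 in G2/M-gated cells. With low cells admitted whatever their G2/M genes, Mki67 differed by 0.52 (adjusted p 0.0999 in edgeR) and 18 members were higher and 1 lower. Mybl2 and Bub1 were higher than in low cells by 3.11 and 3.04, and Ccna2 by 1.69. Plk1 and Cenpa, named after their values were seen, were at no more than 0.770 and 6.23 CPM in S-gated cells and did not pass against low cells (-0.32 and -0.48).

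Among called genes outside all lists with at least 50 UMIs on average in the higher class and the same sign in all 3 tumours, the 5 highest differences from low cells were those of Cenpk, Cenph, Cenps, Zfp367 and Cenpm. Cenpk, which like the other Cenp genes here encodes a centromere protein, was at 36.5, 41.6 and 27.7 CPM against 3.55, 3.52 and 3.20 (log2 difference 3.33, SE 0.16, adjusted p 5.83e-07 in edgeR), Cenph was higher by 3.18, Cenps by 2.93 and Cenpm by 2.78. Zfp367, a zinc finger gene, was higher by 2.81. At the other end Ccl7, a chemokine, had 0 UMIs in the S-gated sums and 304, 284 and 12 UMIs in the low sums, which is at least 25.8-fold lower when 3 UMIs over the S-gated sums of the 3 tumours together are taken as the floor. Trh, a neuropeptide precursor, and Nov, a matricellular protein, were at least 8.95-fold and 11.5-fold lower by the same floor. In edgeR the adjusted p was 0.0574 for Ccl7 without tumour 2 and 0.091 for Nov without tumour 1, and Ccl7 stood at -0.19 when 3 genes sufficed for the S gate. Atp13a5 and the chemokine Cxcl2 had log2 differences of -5.34 and -4.97 with at most 0.312 CPM in S-gated cells, and the adjusted p of Cxcl2 was 0.145 without tumour 2.

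The S-gated cells were compared next with the G2/M-gated cells. The comparison shares the S-gated sums with the preceding one. The classes were separated on 5 G2/M genes, so genes that vary with those differ by construction, and the counts describe how evenly they did so in 3 animals. In edgeR 266 genes (1.83%) were higher in S-gated cells and 707 (4.85%) lower. All 30 genes of the G2 and mitosis list were lower, with a median of -3.91, and 22 of 25 histone genes were lower, with a median of -2.56. After thinning 9 of 23 histone genes were lower. Pif1, a helicase, had 0 UMIs in S-gated cells and was at least 26.8-fold lower, and the kinesin genes Kif14 and Kif2c and the gene Arhgef39 differed by -6.12, -5.20 and -6.42. The number of higher genes fell to 50 without tumour 1 and to 90 without tumour 2, and it was 117 after thinning.

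For the replication machinery, the sign of the median difference between S-gated and G2/M-gated cells changed with thinning. Of the 51 genes 1 was higher and 13 were lower in S-gated cells, with a median log2 difference of -0.228, whereas 14 were higher and 1 lower, with a median of 0.51, when the rule was applied after thinning to 5000 UMIs. Both the S genes and the G2/M genes were then counted after thinning, so the classes did not hold the same cells. Without tumours 1, 2 and 3, 0, 0 and 2 were higher and 9, 11 and 5 lower. Pcna was at 159, 166 and 118 CPM in S-gated and 155, 142 and 159 in G2/M-gated cells, which overlapped (-0.09, adjusted p 0.72 in edgeR), and was higher by 1.02 after thinning. Mcm2 was the member that was higher, at 71.4, 60.1 and 72.5 against 41.6, 36.5 and 53.8 CPM (0.61, adjusted p 0.0385 in edgeR), with adjusted p of 0.275 without tumour 1 and 0.12 without tumour 2. From the lists for chromatin assembly and nucleotide synthesis, Hells was higher by 0.49 (adjusted p 0.0414 in edgeR) and Rrm1 was lower, at 186, 177 and 158 CPM in G2/M-gated cells (-1.33, adjusted p 5.09e-06 in edgeR). The adjusted p of Hells was 0.206 without tumour 1 and 0.261 without tumour 2. Its difference was -0.07 when 3 genes sufficed for the S gate, and that of Rrm1 was -0.32 after thinning (adjusted p 0.22 in edgeR).

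Of the 9 G1 cyclins, kinases and Myc genes, 3 were higher and 0 lower in S-gated than in G2/M-gated cells, and 2 were higher without tumour 1 or without tumour 2. Ccnd1 was higher by 0.77 (adjusted p 0.00368 in edgeR), Ccnd2 was at 896, 1110 and 169 against 445, 442 and 116 CPM (0.98, adjusted p 0.00819 in edgeR), and Cdk6 was higher by 0.54 (adjusted p 0.000968 in edgeR). Ccnd3 differed by 0.41 (adjusted p 0.206 in edgeR), and Ccne1 and Ccne2 of the E2F list by -0.22 and -0.55 (adjusted p 0.692 and 0.148). For Ccnd2 the adjusted p was 0.0698 without tumour 1 and 0.06 without tumour 2. Ung, the uracil glycosylase that removes uracil from DNA, stood out in the repair list after its values were seen, at 41.4, 40.8 and 27.9 CPM against 14.3, 16.5 and 16.8, without overlap (1.15, adjusted p 0.00129 in edgeR). Of the genes outside the lists the highest differences were those of Tagln (1.98), A330069E16Rik (1.33), Nrxn3 (1.18), Rec8 (1.14) and Npy1r (1.07), and those of A330069E16Rik and Npy1r had the other sign after thinning, at -0.17 and -1.53. The adjusted p was 0.245 for Tagln and 0.0723 for Nrxn3 without tumour 1, 0.318 for Rec8 without tumour 3, and 0.106 and 0.111 for Npy1r without tumours 2 and 3. With cells of other types removed Tagln stood at 0.60.

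The tumour's developmental genes were examined because the study asks from which neural progenitors these tumours arise. Sox2, a neural progenitor factor, was at 331, 323 and 366 CPM in S-gated cells and 377, 340 and 376 in low cells, which overlapped (log2 difference -0.08, SE 0.06, adjusted p 0.406 in edgeR). None of the 12 progenitor genes passed in either direction, and 1 passed in each without tumour 3. Of 10 neural stem genes 2 were lower (6 without tumour 1), Sox9, a glial and stem cell factor, at 165, 307 and 195 against 461, 734 and 370 CPM (-1.20, SE 0.12, adjusted p 0.000111 in edgeR), and Hopx with a difference of -1.37, a call lost without tumour 2 (adjusted p 0.0819). Sox9 was at 142, 367 and 162 CPM in G2/M-gated cells, close to the S-gated values (0.07).

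Neuronal genes were lower in 14 of 16 cases and higher in 0, with a median log2 difference of -1.57. Dcx, a microtubule protein of immature neurons, was at 9.66, 20 and 2.90 CPM in S-gated cells against 31.3, 47.1 and 10.4 in low cells, lower in each tumour although the ranges overlap between tumours (-1.54, SE 0.20, adjusted p 0.000528 in edgeR). Tubb3, neuronal tubulin, was at 10.9, 34.7 and 11.4 against 68.3, 80.8 and 52.7 CPM, without overlap (-2.04). The neurogenic factors Neurod1 and Nhlh2 were lower, with differences of -3.84 and -3.17, at under 1 CPM in every S-gated sum, and Neurod1 shares exonic sequence on the same strand with Cerkl and is uncertain. The adjusted p in edgeR was 0.0736 for Neurod1 without tumour 1 and 0.0872 for Nhlh2 without tumour 3, and Nhlh2 stood at -0.49 when 3 genes sufficed for the S gate. Gap43 (-0.29) and Pou4f1 (-1.12, adjusted p 0.145 in edgeR) did not pass. The count of lower genes was 8, 9 and 12 without tumours 1, 2 and 3, was 8 when 3 genes sufficed for the S gate, where Dcx stood at -0.62 (adjusted p 0.158), was 6 of 15 in cells of 10000 to 25000 UMIs, where Dcx stood at -0.72 (adjusted p 0.114), and was 1 without the tumour as a block. No neuronal gene passed against G2/M-gated cells, and 2 were higher without tumour 3.

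Shares of cells were compared as well. With every cell thinned to 5000 UMIs and cells positive for both genes left out, 2.90% of 2998, 2.66% of 1204 and 4.60% of 1695 Sox2-positive cells were S-gated, against 1 of 151 (0.662%), 0 of 126 and 0 of 29 Dcx-positive cells. The difference was 2.24, 2.66 and 4.60 percentage points, with a mean of 3.17 ± 1.26 (SD, n = 3), in the same direction in 3 of 3 tumours (exact two-sided sign-flip permutation test, p = 0.25, the smallest value that 3 tumours allow). The Dcx-positive cells are few, and the exact interval of tumour 3 reaches 11.9%. Sox2 was detected in 26.9, 23.3 and 29.0% of immune-gated cells and Dcx in 4.00, 6.96 and 1.94%. In the few oligodendrocyte-gated cells the shares were 43.5, 60.0 and 100% for Sox2 and 17.4, 10.0 and 0% for Dcx, and in all cells under the limits 65.4, 63.7 and 71.4% for Sox2 and 7.19, 13.2 and 2.64% for Dcx. The overall share was thus below that of oligodendrocyte-gated cells for Dcx in tumour 1 and for Sox2 in tumour 3, where there were 2 such cells, and not far above it for both genes in tumour 2, so in these cases positive cells cannot be told apart from background by the shares. With cells positive for both genes kept, 2.78, 2.57 and 4.57% of Sox2-positive cells were S-gated, against 3 of 352 (0.852%), 3 of 282 (1.06%) and 1 of 64 (1.56%) Dcx-positive cells. Among all cells positive for a gene, the mean S-gated share over tumours was 5.91% ± 2.02 for Gli1, 5.02% ± 1.02 for Ccnd1, 4.62% ± 0.656 for the progenitor filament gene Nes, 2.03% ± 0.571 for Sox9 and 1.13% ± 0.579 for Tubb3. These cell sets overlap and no test was made between them.

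Targets of Sonic hedgehog signalling were higher in 3 of 13 list members, beside 7.24% of all genes tested. Gli1, the transcription factor that reports the pathway's activity, was at 21.8, 21.6 and 19 CPM against 13.9, 12.6 and 8.04, without overlap (log2 difference 0.92, SE 0.15, adjusted p 0.00286 in edgeR). Ptch1, the receptor, was at 330, 413 and 436 against 310, 321 and 278 CPM (0.40, adjusted p 0.0215 in edgeR), a call lost without tumour 2 (adjusted p 0.106) and after thinning (0.14). Hhip, a decoy for the ligand, was higher by 0.72 (adjusted p 0.00637 in edgeR), with an adjusted p of 0.0554 without tumour 3, and 0.37 after thinning (adjusted p 0.273). The median of the list was 0.15, against -0.042 for all genes. In the Notch list 1 of 18 genes passed (2 lower without tumour 2, and 4 lower and 1 higher without tumour 3), the ligand Dll1, at 55.8, 52.4 and 72.5 against 120, 99.3 and 99.8 CPM (-0.79, adjusted p 0.00122 in edgeR). Of all genes tested 5.02% were lower, so a count of 1 in 18 does not set the Notch list apart.

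Smarcb1, the gene floxed in these animals, had 5, 1 and 2 UMIs in the S-gated sums, which is 1.56, 0.770 and 0.446 CPM with exact Poisson intervals of 0.506 to 3.64, 0.0195 to 4.29 and 0.0540 to 1.61 that cover counting error only. Immune-gated cells of the same tumours held 20.7, 12.8 and 14 CPM. Low cells held 2.59, 3.38 and 1.98 CPM, and 0.407, 0.750 and 0.709 after cells with markers of other types were removed. The libraries count 3' ends, and whether the counted end lies in the deleted part was not examined. Of 21 SWI/SNF genes 3 were higher and 2 lower than in low cells (1 and 0 without tumour 1 or tumour 2, 5 and 1 without tumour 3), with Ss18 at 0.45 and the neuronal subunit Actl6b at -2.13, a call lost without tumour 1 (adjusted p 0.153 in edgeR) or tumour 2 (0.0719). The call of Ss18 was lost without tumour 1 (adjusted p 0.071) or tumour 2 (0.0682). Of all genes tested 7.24% were higher and 5.02% lower.

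Markers of other cell types moved with the classes. The 9 oligodendrocyte markers were all lower in S-gated cells (median log2 difference -3.31, led by Mag at -5.47 and Cldn11 at -5.05), with summed levels of 57, 165 and 17.8 CPM in S-gated and 581, 1950 and 14.8 in low cells. Of the 9, 6 were lower without tumour 1 and 5 without tumour 2. With cells that held 2 or more markers of oligodendrocytes, their precursors, astrocytes or mural cells removed from all classes, none of the 6 oligodendrocyte genes still tested passed, Cldn11 stood at -0.46 (adjusted p 0.802 in edgeR), 15 of 16 neuronal genes were lower and 46 of 51 replication genes were higher and 1, Pold4, lower. Such cells made up 13.1, 19 and 5.03% of S-gated and 9.18, 15.8 and 6.59% of low cells. Astrocyte markers were lower in 2 of 6 cases, with Aqp4 at -2.15 and Slc1a2 at -1.02. The call of Aqp4 was lost without tumour 2 (adjusted p 0.178 in edgeR) or tumour 3 (0.128), and the summed level of the list was 232, 232 and 115 against 288, 412 and 232 CPM. Haemoglobin genes were lower in 3 of 4 cases, with sums of 18.1, 13.1 and 0 against 60.9, 197 and 0.712 CPM, and 1 was lower without tumour 2. Sums of the 7 mural cell markers were 222, 9.24 and 82.3 CPM in S-gated, 159, 55.6 and 398 in low and 46.6, 22.3 and 74.0 in G2/M-gated cells. None of them passed against low cells, but 6 were lower without tumour 1, and against G2/M-gated cells 1 was higher, or 5 without tumour 3. Sums of immune markers were 30.5, 52.4 and 29.9 against 39.3, 69.9 and 30.2 CPM, and none of the 10 tested passed. Of 5 endothelial markers Kdr was higher (1.78, adjusted p 0.0181 in edgeR), at 20.6, 12.3 and 2.68 against 3.07, 3.38 and 2.34 CPM, and was at 1.06 (adjusted p 0.294) without tumour 1 and 1.77 (adjusted p 0.138) without tumour 2. Of the mesenchymal list 2 of 8 were lower, Col1a1 at -1.83 and Col1a2 at -0.84, the latter a call lost when any single tumour was left out (adjusted p 0.178, 0.0775 and 0.0537 in edgeR). The part of such cells in the differences of the rare genes was not tested beyond this removal.

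Genes that respond to tissue dissociation were lower in 8 of 14 cases and higher in 0, with a median log2 difference of -0.40, and 3 to 7 were lower when any single tumour was left out. Fos, an immediate early gene named after its values were seen, was at 1690, 2020 and 1680 CPM in S-gated cells and 2220, 2940 and 2260 in low cells, without overlap (-0.43, adjusted p 0.000567 in edgeR). The median mitochondrial share was 4.21, 4.24 and 4.21% in S-gated cells and 4.42, 4.52 and 3.98% in low cells. Of 13 genes of respiration and glycolysis 4 were higher, all of them glycolytic, with Gapdh by 0.64 and Pgk1 by 0.58 (adjusted p 0.0563 without tumour 2 in edgeR), and the number of higher genes was 2, 1 and 8 without tumours 1, 2 and 3. At 5000 UMIs the median number of genes per cell was 2119.5, 2213 and 2148 in S-gated cells and 2087, 2163 and 2121 in low cells.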

How the data were processed

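The deposited files hold, for 3 tumours, the UMI counts per gene and cell barcode that the authors made on the mm10 reference (Cell Ranger 3.1.0 per the submitters' processing notes). The deposited counts are whole numbers with at least 500 UMIs per barcode and were not normalised. Of 31053 genes, 31011 had an identifier in GENCODE M21. The authors' removal of non-tumour cells was not applied, and the rule left out only immune and endothelial cells.

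Cells were classed by the rule, and UMIs were summed per tumour and class (at least 20 cells). Sums of S-gated, low and G2/M-gated cells were fitted together in edgeR 4.0.16 (R 4.3.3) with TMM factors, filterByExpr, class and tumour as terms, the quasi-likelihood test, and Benjamini-Hochberg adjustment over all 14565 genes at 0.05. The 3 sums of a number come from the same animal, and the deviations from class means correlated within tumours across genes (0.623 to 0.842 for S-gated sums), so the tumour was a block. Whether the tumours count as independent rests on the labels, which give a different mouse for each. Alternatives were RLE factors, no filter, DESeq2 1.42.0, no block, each tumour left out, thinning to 5000 UMIs, a depth band, Scrublet (scanpy 1.11.5) at 0.8% per 1000 cells, removal of other cell types, and other gates. Intervals are exact (SciPy 1.17.1, with NumPy 2.4.6, Python 3.11.15 and matplotlib 3.10.9), at 95%.

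The members, gene lists and tests were chosen with earlier results of these data known. Named genes are a fixed set of replication, cycle and neural genes, up to 2 further called members with the largest difference per list, and the 5 highest and 5 lowest genes outside the lists with a mean of at least 50 UMIs in the higher class, all changed the same way in 3 tumours. The edgeR step was tested on simulated counts. Promoter sequences are from RefSeq (GRCm38.p6), which gave a window for 71 of 94 named and rule genes.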

Additional observations from a re-analysis of the deposited data

Results flagged for a closer look

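Barcodes under 5000 UMIs enter none of the comparisons. At least 4 of the 8 genes were detected in 39 of 6824 such barcodes in tumour 1 (0.572%, exact 95% interval 0.407 to 0.780), in 22 of 6694 in tumour 2 (0.329%, 0.206 to 0.497) and in 34 of 3725 in tumour 3 (0.913%, 0.633 to 1.27). They are given here because they lie outside the comparisons and exceed 3 barcodes in each tumour, which is no test of a signal. There were no control samples and no background share was measured for such barcodes, so cells with these transcripts and free RNA cannot be told apart.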

How the results depend on the processing

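The numbers of called genes moved more than the direction of the named genes. In the pairing by tumour, leaving out the replicate block gave 278 genes higher and 8 lower than in low cells, and 2 higher and 236 lower than in G2/M-gated cells. Leaving out 1 tumour at a time gave 461 to 1307 higher and 202 to 595 lower genes against low cells, and 50 to 225 higher and 357 to 554 lower genes against G2/M-gated cells. Without the filter on low counts, 1527 genes were lower than in low cells, and 500 were higher and 1138 lower than in G2/M-gated cells. In cells of 10000 to 25000 UMIs, a band chosen after the data were seen because the planned band of 5000 to 10000 UMIs held too few S-gated cells and was not run, 339 genes were lower than in low cells. After thinning to 5000 UMIs, 117 genes were higher and 279 lower than in G2/M-gated cells. With 3 genes in the S gate these were 668 and 1236, and the share of cells under the limits that are S-gated was 9.09%. With 5 genes, 131 were higher than in G2/M-gated cells. The difference between Sox2-positive and Dcx-positive cells was 1.65 points with 5 genes and 4.98 without thinning. Among named genes, signs changed only against G2/M-gated cells. The histone median against low cells went from -0.01 to 0.57 in the depth band and 1.45 after thinning, and the median of all genes from -0.042 to between -0.175 and 0.021. The values from here on to the depth band and the removal of doublets are differences from G2/M-gated cells. After thinning the log2 differences from G2/M-gated cells were 1.02 for Pcna, 0.68 for Mcm7, 1.16 for Cdt1, 0.45 for Cdc45, 0.44 for Pola1, 0.81 for Prim1, 0.58 for Tyms, 0.56 for Dut, 0.51 for Dnmt1, 1.32 for Ccne1, 2.04 for Ccne2, -0.21 for Cdkn1c, -0.12 for Ptch1, -0.27 for Dcx, -0.17 for A330069E16Rik and -1.53 for Npy1r. With 1 tumour left out at a time, those of Pcna reached 0.09 without tumour 3, those of Mcm7 ran from -0.13 to 0.09, of Cdt1 from -0.29 to 0.06 and of Mycn from -0.04 to 0.15, with the changed sign in each case without tumour 3, and those of Cdkn1c from -0.17 without tumour 1 to 0.73. With 5 genes they were 0.17 for Pcna, 0.16 for Mcm7, 0.16 for Cdt1 and 0.03 for Ccne1, and with 3 genes -0.21 for Chaf1b, -0.07 for Hells and -0.01 for Mycn. In the depth band they were -0.50 for Cdkn1c and -0.08 for Mycn, and with doublets removed -0.06 for Smarcb1. The cause of these changes was not tested. Of all alternative values of named genes, 1668 kept direction and side of the threshold, 180 lost the call, 58 gained it and 31 changed sign. Few S-gated cells in tumour 2 (84) and their depth limit genes below about 1 CPM.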
